A study of Danio rerio with 32 samples.

Results

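The cytosolic ribosomal protein genes of the zebrafish were followed through the eyes and brains of embryos raised in light-dark cycles or in constant darkness, with and without PFNA, a long-chain perfluoroalkyl acid whose full name is perfluorononanoic acid. They were taken as the protein-coding genes whose symbol begins with rpl, rps or rplp and a digit, leaving out the rps6k kinases. The rule found 82 of the 32520 genes in the table, 34 with names of the 40S subunit and 48 with names of the 60S subunit. The embryos were wild type and stood in 0.1% DMSO, the solvent, from 0.75 to 120 hours post fertilization. The DD PFNA and DD DMSO groups had 24 h of dark per day with 12.5 µM or 0 µM PFNA, and the LD PFNA and LD DMSO groups had 14 h of light and 10 h of dark with the same 2 doses. Each of these 4 groups was taken from eye and from brain, which gave 8 groups of 4 libraries. The sample labels and the title name PFNA, whereas the design text names PFHxS, another perfluoroalkyl acid, at the same dose, and the labels are followed here. Values are FPKM, in which the fragments of a gene are divided by its length and by the size of the library, so that levels of different genes are given per length. Whether the replicates are separate clutches is not stated, and p-values refer to the spread among the libraries, which may be technical.

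Ribosomal proteins surround the ribosomal RNAs of the small (40S) and the large (60S) subunit, which join on an mRNA to translate it. Most are made in equal numbers, and their mRNAs are among the most abundant of growing cells. They share a pyrimidine tract at the start of the mRNA, through which mTOR signalling sets their translation. Several members have further roles: Rpl5 and Rpl11 bind Mdm2 when ribosome assembly fails and so raise p53, and zebrafish lacking one of many ribosomal proteins develop small heads and eyes. Several, among them rplp0, rpl13a and rps18, serve as reference genes in quantitative PCR.

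Most libraries matched their labelled tissue, and 2 stood apart. The rod opsin gene rho lay at 1161 to 3593 FPKM in the 16 eye libraries and at 0.126 to 7.74 FPKM in 15 brain libraries. Among brains, the library with the label Brain DD PFNA replicate 3 had 1283 FPKM of rho and 832.5 FPKM of the lens gene crygm2d1, against at most 2.00 FPKM of crygm2d1 in the other brains, and 3.77 FPKM of the myelin gene mbpa, against 46.7 to 100.9 FPKM. It goes against its label and was left out, so that Brain DD PFNA has 3 libraries here. Eye DD PFNA replicate 4 carried its label's tissue markers, with rho (1334 FPKM) and crygm2d1 (1759 FPKM) within the range of the other eyes. Other markers lay outside that range. Its summed lens markers were 20130 FPKM, against 8403 to 13790 FPKM, and its mbpa was 11.9 FPKM, against at most 5.33 FPKM. The marker genes elavl3, gad1b, pmela and mki67 were each at their lowest among the eye libraries. Not all markers were low: neurod6b was at its highest, 5.23 FPKM, against at most 4.77 FPKM. The value of pcna (80.8 FPKM) lay within the 43.1 to 96.0 FPKM of the other eyes. It held 10.0% mitochondrially encoded fragments, against 4.66% to 8.03% in the other eye libraries. Genes other than the members that are shorter than 1000 bases took 7.29% of its fragments, against 3.51% to 4.73% in those. It had the highest value of all eye libraries for 68 of 78 members, so the main results that it enters are given with and without it. Recovered fragments per library ran from 8.83 M to 16.13 M with a median of 11.44 M.

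Most members were abundant, and a few were listed near 0. Of the 82, 43 averaged at least 100 FPKM over the 31 libraries, 27 lay between 10 and 100, 2 between 5 and 10, and 10 below 5. The median of their means was 111.4 FPKM, against 7.97 FPKM for the 15848 protein-coding genes that average at least 1 FPKM. The highest were rps2 (678 FPKM), a 40S protein near the mRNA entry, rplp2 (530 FPKM) of the 60S stalk, rps14 (479 FPKM) of the 40S platform, rpl3 (414 FPKM) near the peptidyl transferase centre, and rpl18 (413 FPKM). The lowest were rpl10 (1.08 FPKM), rpl9 (0.73 FPKM), rpl26 (0.71 FPKM), the rpl37 gene on chromosome 2 (0.54 FPKM) and rpl32, which had at most 1 fragment in any library. These values are those listed at these gene entries. How reads that match several copies were counted is not given in the sources used here, so a low value at 1 entry may not be the level of the protein's mRNA.

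The members are spread over 25 chromosomes, with at most 7 on one of them, and their median gene length in the table is 1225 bases, against 2451 bases for the protein-coding genes above. The rule also holds genes that are no plain subunit. Rps19bp1 (2.75 FPKM) is named as a binding protein of Rps19, and rpl7l1 (10.9 FPKM) is a nucleolar relative of Rpl7 that takes part in 60S assembly. In the other direction, rpsa, faua and rack1, which encode ribosome components under other names, the rps20 entry, which is not typed as protein coding, and RPL37A, written in capitals, are among those outside it.

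**Figure D1:**
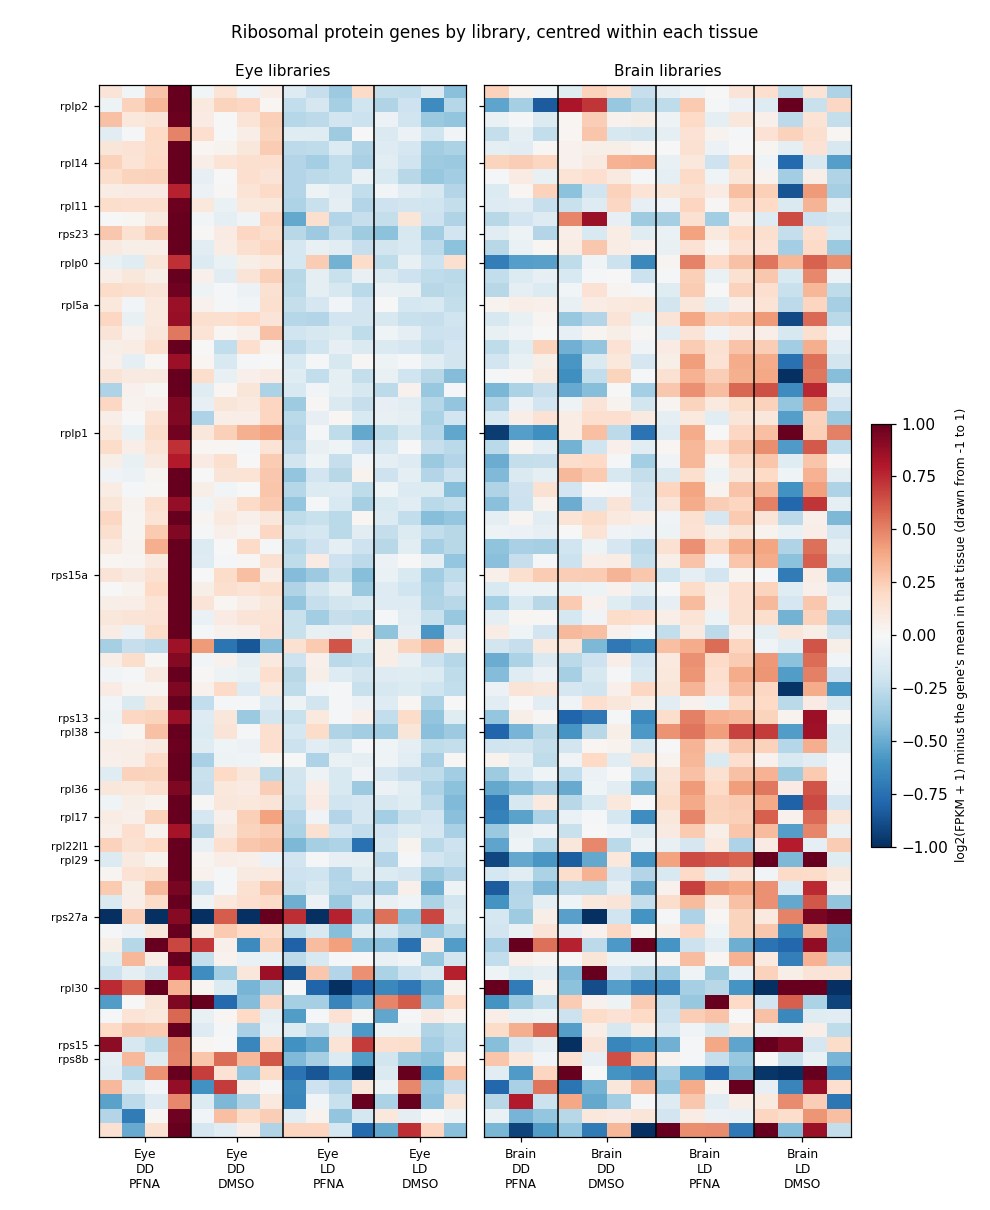
Each row is 1 of 74 ribosomal protein genes tested in both tissues, ordered from the highest mean FPKM at the top, and 18 rows are labelled. Each column is a library, and colour gives log2(FPKM + 1) minus the gene's mean over that tissue's libraries. Replicate 4 of Eye DD PFNA is the darkest column, over most rows the other Eye DD columns lie near white or light red and Eye LD columns are white to light blue, and brain columns are mixed.

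The share of a library's fragments that fell on the 82 members separated the photoperiods in eyes. Eye DD PFNA libraries held 1.57%, 1.47%, 1.59% and 2.63%, against 1.21%, 1.27%, 1.24% and 1.26% in Eye LD PFNA. Eye DD DMSO libraries held 1.54%, 1.53%, 1.55% and 1.70%, against 1.37%, 1.35%, 1.22% and 1.23% in Eye LD DMSO. Every DD eye library thus lay above every LD eye library, with and without replicate 4 of Eye DD PFNA. No test was made of the share, since the members were chosen with results of these data known.

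Brains did not show that separation. Brain DD PFNA libraries held 1.09%, 1.19% and 1.18%, against 1.22%, 1.46%, 1.26% and 1.41% in Brain LD PFNA, which do not overlap and run the other way. Brain DD DMSO libraries held 1.189%, 1.396%, 1.292% and 1.198%, against 1.48%, 1.03%, 1.71% and 1.11% in Brain LD DMSO, which overlap. Brain LD DMSO replicates 1 and 3 were high and replicates 2 and 4 low. Summed epidermis markers were 874.3, 256.2, 783.0 and 54.2 FPKM in those 4 libraries in order, and summed cartilage markers were 498.3, 166.2, 700.8 and 66.0 FPKM. Other lists ran differently: skeletal muscle markers summed to 222.9, 494.5, 817.9 and 122.5 FPKM in the same order. Exocrine pancreas and gut markers summed to 41.7, 25.3, 16.6 and 26.4 FPKM. Of the 16 epidermis markers found in the table, epcam was at 0 in every brain library, and no cartilage marker was. Of 21 skeletal muscle markers, pvalb2 was at 0 in every brain library. The part of these tissues in the members' values was not tested. In dissected tissue a smaller share of cells that use a gene and less RNA per cell cannot be told apart.

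**Figure D2:**
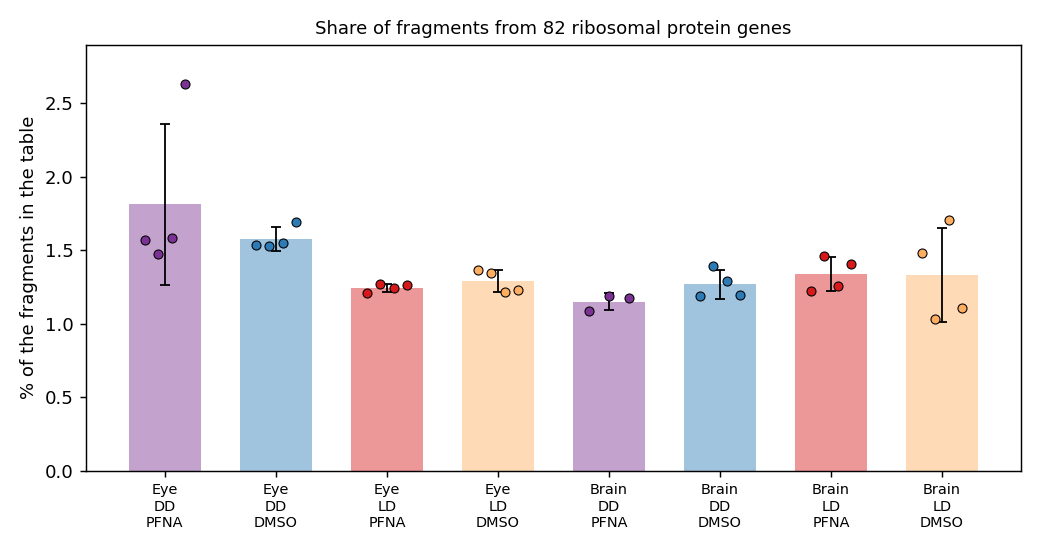
Points are libraries and bars are group means with their SD (n = 4, or 3 in Brain DD PFNA), for the percentage of a library's fragments that fell on the 82 ribosomal protein genes. The 8 DD eye libraries sit between 1.47% and 2.63%, and the 8 LD eye libraries between 1.21% and 1.37%.

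Constant darkness raised ribosomal protein transcripts in PFNA eyes. Of 78 members tested, 27 rose and none fell in Eye DD PFNA against Eye LD PFNA, 13 of the 40S and 14 of the 60S subunit, while 7.04% of all 18204 genes were called higher and 9.05% lower (limma with Benjamini-Hochberg adjustment under 0.05). The members' median difference was 0.50 on the log2(FPKM + 1) scale, against 0.01 for all genes, and 75 of 78 were positive. In 42 members the DD and LD libraries did not overlap, higher in DD (8.25% of all genes). Without replicate 4 of Eye DD PFNA the median was 0.27, and 27 members were called, 25 of them the same ones, while 4.49% of all genes were called higher. Leaving out Eye LD PFNA replicate 1, 2 or 4 left 10, 8 and 8 calls, and a fit of only these 2 groups left none.

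Rpl22l1, the paralog of rpl22 in the large subunit, stood at 57.9, 54.6, 56.7 and 113.5 FPKM in Eye DD PFNA, against 35.7, 39.0, 39.5 and 28.9 FPKM in Eye LD PFNA. The groups do not overlap, and the difference was 0.90 ± 0.19 (SE; adjusted p = 0.00832 by limma), or 0.65 (adjusted p = 0.0032) without replicate 4.

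Rps23, which lines the decoding centre, had 405.3, 374.4, 398.7 and 774.8 FPKM in Eye DD PFNA, against 278.1, 261.4, 284.7 and 263.6 FPKM in Eye LD PFNA. Rpl14, a 60S protein, had 529.8, 494.1, 518.2 and 988.7 FPKM in Eye DD PFNA, against 367.6, 356.4, 380.3 and 359.7 FPKM in Eye LD PFNA. Rps15a of the 40S subunit had 165.1, 161.0, 168.1 and 389.3 FPKM in Eye DD PFNA, against 111.5, 117.1, 127.8 and 112.4 FPKM in Eye LD PFNA. In each of these genes the first 3 DD libraries lie close together, replicate 4 is well above them, and no DD library reaches down to an LD one. The differences were 0.77, 0.72 and 0.80, or 0.53, 0.49 and 0.49 without replicate 4, and all were called in both fits.

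Other called members have roles beyond the ribosome. Rpl11 of the 5S particle had 431.7, 428.2, 427.2 and 751.4 FPKM in Eye DD PFNA, against 306.9, 325.8, 357.0 and 311.7 FPKM in Eye LD PFNA (0.60 ± 0.15, adjusted p = 0.0174 by limma; 0.40 and adjusted p = 0.00277 without replicate 4). Its partner rpl5a was at 351.0, 319.8, 348.1 and 593.4 FPKM in Eye DD PFNA, against 276.5, 290.0, 319.0 and 285.9 FPKM in Eye LD PFNA (0.42 ± 0.15), and did not pass (adjusted p = 0.0724), though the groups just miss touching, nor without replicate 4 (0.21, adjusted p = 0.0842). Rps6, the target of S6 kinase, was called (0.43 ± 0.13), as were rps14 (0.62 ± 0.16) and rps19 (0.60 ± 0.19), 2 genes whose human counterparts are lost or mutated in anaemias. Without replicate 4 these 3 differed by 0.28, 0.42 and 0.32 and were called as well. In the stalk that recruits elongation factors, rplp1 (0.56 ± 0.18) and rplp2 (0.69 ± 0.21) were called, whereas rplp0, its base, differed by 0.22 ± 0.19 (adjusted p = 0.43). Without replicate 4 rplp2 was called (0.40, adjusted p = 0.029) and rplp1 was not (0.34, adjusted p = 0.0692).

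The largest fold among the calls belonged to rpl30, a 60S protein that in yeast controls the splicing of its own transcript. It had 19.0, 17.0, 158.1 and 14.2 FPKM in Eye DD PFNA, against 10.9, 5.85, 4.77 and 5.79 FPKM in Eye LD PFNA. The groups do not overlap, but replicate 3 alone is far above the rest. The difference was 2.02 ± 0.53 (adjusted p = 0.0218 by limma), without replicate 3 it was 1.23 (adjusted p = 0.00723), and without replicate 4 it was 2.36 (adjusted p = 0.0158). Without Eye LD PFNA replicate 2 or 4 it was 1.98 and 1.97 and not called (adjusted p = 0.0535 and 0.0523). In brain libraries rpl30 also reached 96.3 FPKM in Brain DD PFNA replicate 1 and 78.7 FPKM in Brain LD DMSO replicate 2, while the others ranged from 3.12 to 21.4 FPKM.

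In DMSO eyes few members were called while all 16 libraries were in the fit. In Eye DD DMSO against Eye LD DMSO 2 of 78 members rose and none fell (6.22% of all genes called higher and 6.34% lower), and 12 had an unadjusted p under 0.05. The median difference was 0.25 against 0.03 for all genes, 68 of 78 were positive, and in 34 members the groups did not overlap (11.8% of all genes). Rps8b, the low-level copy of rps8a, had 11.2, 13.9, 11.7 and 14.5 FPKM in Eye DD DMSO, against 7.88, 6.81, 6.61 and 9.53 FPKM in Eye LD DMSO (0.67 ± 0.16, adjusted p = 0.0136 by limma). Rplp1 had 170.7, 186.4, 202.8 and 209.0 FPKM in Eye DD DMSO, against 132.7, 141.6, 129.6 and 109.7 FPKM in Eye LD DMSO (0.58 ± 0.18, adjusted p = 0.0453).

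The number of calls in DMSO eyes turned on the estimate of the spread, which all eye groups share. Without Eye DD PFNA replicate 4, which is in neither group, 36 members were called higher and none lower (10% of all genes called higher), at the same median of 0.25, which is close to the 0.27 of PFNA eyes without that library. Among them were rpl14 (0.39), rps23 (0.39), rpl22l1 (0.31) and rpl11 (0.27). Whether darkness acted differently with PFNA than with DMSO is the same test as that of the PFNA effect in DD against LD, given with the PFNA results, and it called no member in eyes. Leaving out instead Eye LD DMSO replicate 1, 2, 3 or 4, or Eye DD DMSO replicate 2, 3 or 4, left 1 call.

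Other values differed with photoperiod in eyes, some with overlap. Summed retina and photoreceptor markers, 19 genes with none at 0 throughout, were 9927 to 11436 FPKM in Eye DD DMSO, against 14528 to 18573 FPKM in Eye LD DMSO, which do not overlap. They were 7444 to 9865 FPKM in Eye DD PFNA, against 9172 to 11568 FPKM in Eye LD PFNA, which overlap. Of the 19, 5 fell and 3 rose with darkness in DMSO eyes, and 5 fell and 2 rose in PFNA eyes (6 and 4 in DMSO eyes and 4 and 2 in PFNA eyes without Eye DD PFNA replicate 4). Mitochondrially encoded fragments were 6.09% to 8.03% in Eye DD DMSO, against 5.29% to 6.13% in Eye LD DMSO, and 5.07%, 6.17%, 6.10% and 10.0% in Eye DD PFNA, against 4.66% to 5.85% in Eye LD PFNA, and both pairs overlap. Short genes other than the members took 4.19% to 4.73% in Eye DD DMSO, against 3.98% to 4.33% in Eye LD DMSO, and 4.03% to 7.29% in Eye DD PFNA, against 3.51% to 4.17% in Eye LD PFNA. Of 18 exocrine pancreas and gut markers, 14 could be tested in eyes, and 10 of them rose in Eye DD DMSO, where their summed level was 88.3 to 418.7 FPKM, against 28.0 to 132.8 FPKM in Eye LD DMSO. Their summed level was 68.3 to 291.4 FPKM in Eye DD PFNA, against 33.5 to 79.3 FPKM in Eye LD PFNA, where 4 of 14 rose, and ctrb1 of this list was at 0 in every eye and brain library. In PFNA eyes 5 of 12 cartilage markers and 5 of 9 pigment epithelium markers fell with darkness (2 and 2 without Eye DD PFNA replicate 4). Of all genes, 6.22% rose and 6.34% fell with darkness in DMSO eyes (10% and 12.1% without that library). In PFNA eyes 7.04% of all genes rose and 9.05% fell (4.49% and 6.5% without it). The part of these markers and shares in the members' values was not tested.

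**Figure D3:**
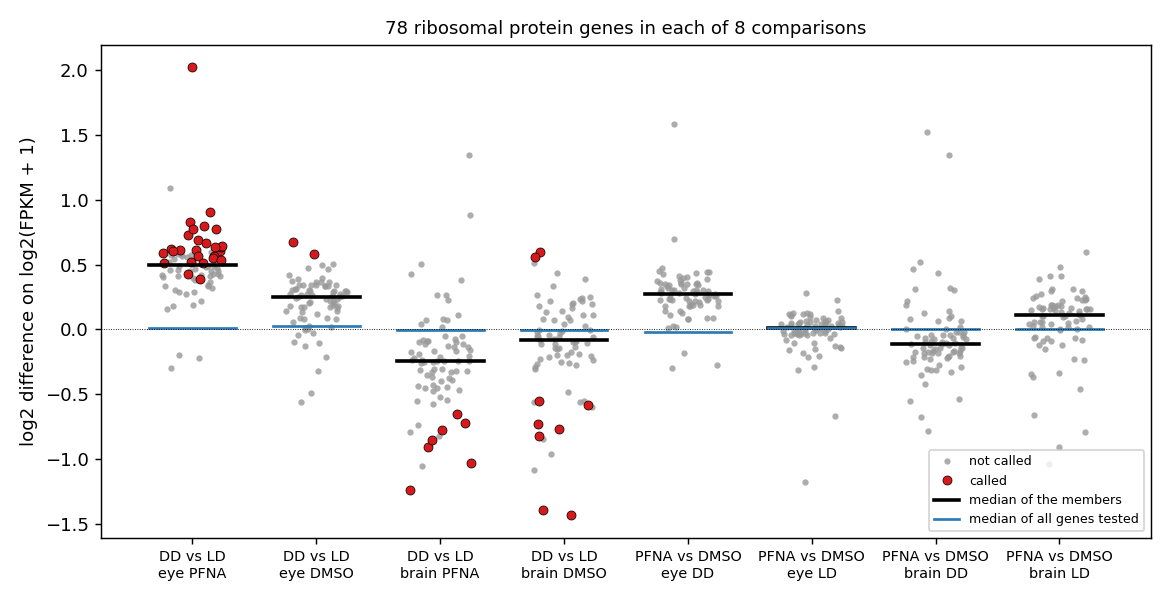
Points are 78 ribosomal protein genes in each of 8 comparisons, with the difference on the log2(FPKM + 1) scale on the vertical axis. Red points passed the test, black bars are the members' medians and blue bars the medians of all genes tested. The members' median is 0.50 for darkness in PFNA eyes, 0.25 in DMSO eyes, -0.25 in PFNA brains and -0.08 in DMSO brains.

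In PFNA brains more members were lower in darkness than higher. In Brain DD PFNA against Brain LD PFNA 7 of 78 members fell and none rose. Of all 17216 genes, 5.97% were called lower and 3.66% higher. In 30 members the groups did not overlap, lower in DD (16.3% of all genes), and in 3 they did not overlap, higher in DD. The share of all genes for the latter is not given here. The median difference was -0.25, against 0.00 for all genes, and 64 of 78 were negative. In Brain DD DMSO against Brain LD DMSO 7 members fell and 2 rose (9.68% of all genes called lower and 6.39% higher), with a median of -0.08 and 51 negative, so that the share of members that fell, 7 of 78, is near that of all genes. In 6 members the DMSO groups did not overlap, lower in DD, and in 2 they did not overlap, higher in DD (8.97% and 6.59% of all genes). Rplp0, rpl17 and rpl36 fell under both treatments. The 2 comparisons share no library, but each gene's spread comes from the same fit of all brain libraries. How many of all genes fell under both treatments is not given here.

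Rplp0, the base of the stalk, had 188.7, 208.4 and 209.8 FPKM in Brain DD PFNA, against 312.3, 432.8, 349.2 and 375.2 FPKM in Brain LD PFNA (-0.85 ± 0.14, adjusted p = 0.00246 by limma). It had 256.2, 298.4, 262.7 and 195.6 FPKM in Brain DD DMSO, against 443.7, 384.3, 460.3 and 423.4 FPKM in Brain LD DMSO (-0.77 ± 0.13, adjusted p = 0.00129). No DD library of either treatment reaches an LD library. Its gene lies on the minus strand of chromosome 5, from 1950660 to 1963498 in the table's coordinates, whose build is not given in the sources used here.

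Rpl17, a 60S protein at the exit tunnel, had 33.0, 36.4 and 42.7 FPKM in Brain DD PFNA, against 57.6, 75.2, 62.2 and 63.1 FPKM in Brain LD PFNA. Under DMSO it had 50.9, 52.8, 47.0 and 34.2 FPKM in Brain DD, against 81.3, 54.9, 79.4 and 58.2 FPKM in Brain LD. The groups do not overlap in either treatment, and the differences were -0.77 ± 0.17 with PFNA and -0.55 ± 0.16 with DMSO. Rpl36 had 41.4, 43.9 and 47.4 FPKM in Brain DD PFNA, against 66.1, 80.4, 68.7 and 79.9 FPKM in Brain LD PFNA. In DMSO brains it had 41.6, 57.9, 55.1 and 42.7 FPKM under DD, against 86.4, 63.1, 92.4 and 58.1 FPKM under LD. The differences of rpl36 were -0.72 ± 0.16 and -0.58 ± 0.15 in that order, and the closest DMSO libraries, at 57.9 and 58.1 FPKM, nearly touch.

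Other members were called under 1 treatment. Rpl29, a 60S surface protein, had 26.26, 35.02 and 33.20 FPKM in Brain DD PFNA, against 66.7, 79.7, 78.3 and 76.2 FPKM in Brain LD PFNA (-1.24 ± 0.32, adjusted p = 0.0265 by limma). Under DMSO it had 27.9, 34.9, 54.2 and 33.0 FPKM in Brain DD, against 102.1, 36.6, 109.4 and 46.0 FPKM in Brain LD, where 2 of the LD libraries lie among the DD ones. Rpl38, which in mice is needed for translation of a set of Hox mRNAs, had 38.0, 47.8 and 54.8 FPKM in Brain DD PFNA, against 91.2, 96.7, 89.4 and 106.6 FPKM in Brain LD PFNA (-1.03 ± 0.28, adjusted p = 0.0317). Under DMSO rpl38 had 43.8, 54.6, 69.2 and 44.3 FPKM in Brain DD, against 108.7, 44.7, 120.6 and 59.6 FPKM in Brain LD, which overlap. The PFNA brains also had lower rpl37 on chromosome 21 (-0.91 ± 0.20) and rps21 (-0.65 ± 0.16). In DMSO brains these genes differed by -0.56 ± 0.19 (adjusted p = 0.0544 by limma) and -0.31 ± 0.15 (adjusted p = 0.183) in that order.

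Rps27a, rps13, rps15 and rplp1 were called in DMSO brains and not in PFNA brains. With PFNA rplp1 still differed by -0.82 ± 0.25 (adjusted p = 0.0568 by limma) and rps13 by -0.44 ± 0.21 (adjusted p = 0.213). For both genes the PFNA groups did not overlap. Rps27a (-0.14 ± 0.28) and rps15 (-0.07 ± 0.49) differed less with PFNA. The test of whether darkness acted differently by treatment, given with the PFNA results, called no member in brains. Rps27a, which is made as a fusion with ubiquitin, had 10.1, 6.25, 13.1 and 9.69 FPKM in Brain DD DMSO, against 16.4, 21.9, 30.3 and 45.5 FPKM in Brain LD DMSO (-1.39 ± 0.26, adjusted p = 0.00273 by limma). Rps13 had 34.5, 36.5, 59.8 and 38.7 FPKM in Brain DD DMSO, against 70.9, 62.2, 110.6 and 61.1 FPKM in Brain LD DMSO (-0.82 ± 0.19, adjusted p = 0.0112). Both sets of libraries are apart, though in rps13 the highest DD value is close to the lowest LD one. Rps15 had 3.27, 8.85, 4.75 and 4.94 FPKM in Brain DD DMSO, against 53.1, 16.1, 7.04 and 9.25 FPKM in Brain LD DMSO (-1.43 ± 0.46, adjusted p = 0.046). Rplp1 had 189.9, 222.0, 149.9 and 107.2 FPKM in Brain DD DMSO, against 221.5, 427.7, 211.9 and 255.8 FPKM in Brain LD DMSO (-0.73 ± 0.24, adjusted p = 0.0491). In neither do the DD and LD libraries separate, and LD replicate 1 is far the highest for rps15 and LD replicate 2 for rplp1.

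Rpl14 and rps15a ran the other way in brains, and were called with DMSO only. Rpl14 had 318.7, 329.2, 395.2 and 398.1 FPKM in Brain DD DMSO, against 301.0, 179.9, 277.0 and 211.0 FPKM in Brain LD DMSO (0.59 ± 0.15, adjusted p = 0.0147 by limma). Rps15a had 122.2, 122.9, 130.7 and 124.3 FPKM in Brain DD DMSO, against 101.6, 63.0, 108.6 and 74.0 FPKM in Brain LD DMSO (0.56 ± 0.14, adjusted p = 0.0138). These groups do not overlap, and both genes were also called higher with darkness in PFNA eyes. In PFNA brains rpl14 averaged 363.1 FPKM under DD, against 312.0 FPKM under LD, and rps15a 115.0 against 95.4 FPKM. Those groups do not overlap either, but neither gene was called there.

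The brain counts moved with single libraries. Without Brain LD DMSO replicate 2, 14 members fell and 2 rose in DMSO brains, and without Brain LD DMSO replicate 1 or Brain DD DMSO replicate 4, 3 fell and 2 rose. With PFNA, 1 member was called without Brain DD PFNA replicate 1, 2 without replicate 2 and 4 without replicate 4, Brain LD PFNA replicate 2 or Brain LD PFNA replicate 4, each time lower in DD. With quantile normalization 5 rose and 4 fell in DMSO brains. The shares of all genes called in these fits are not given here. The 11 pancreas and gut markers tested in brain rose in Brain DD DMSO, where they summed to 70.3 to 524.2 FPKM, against 16.6 to 41.7 FPKM in Brain LD DMSO, and 5 of 7 pigment epithelium markers fell there. None of them was called in PFNA brains, where they summed to 16.7 to 35.3 FPKM under DD, against 13.2 to 39.3 FPKM under LD. In PFNA brains epidermis markers summed to 44.7 to 287.8 FPKM under DD, against 40.7 to 441.4 FPKM under LD, which overlap.

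**Figure D4:**
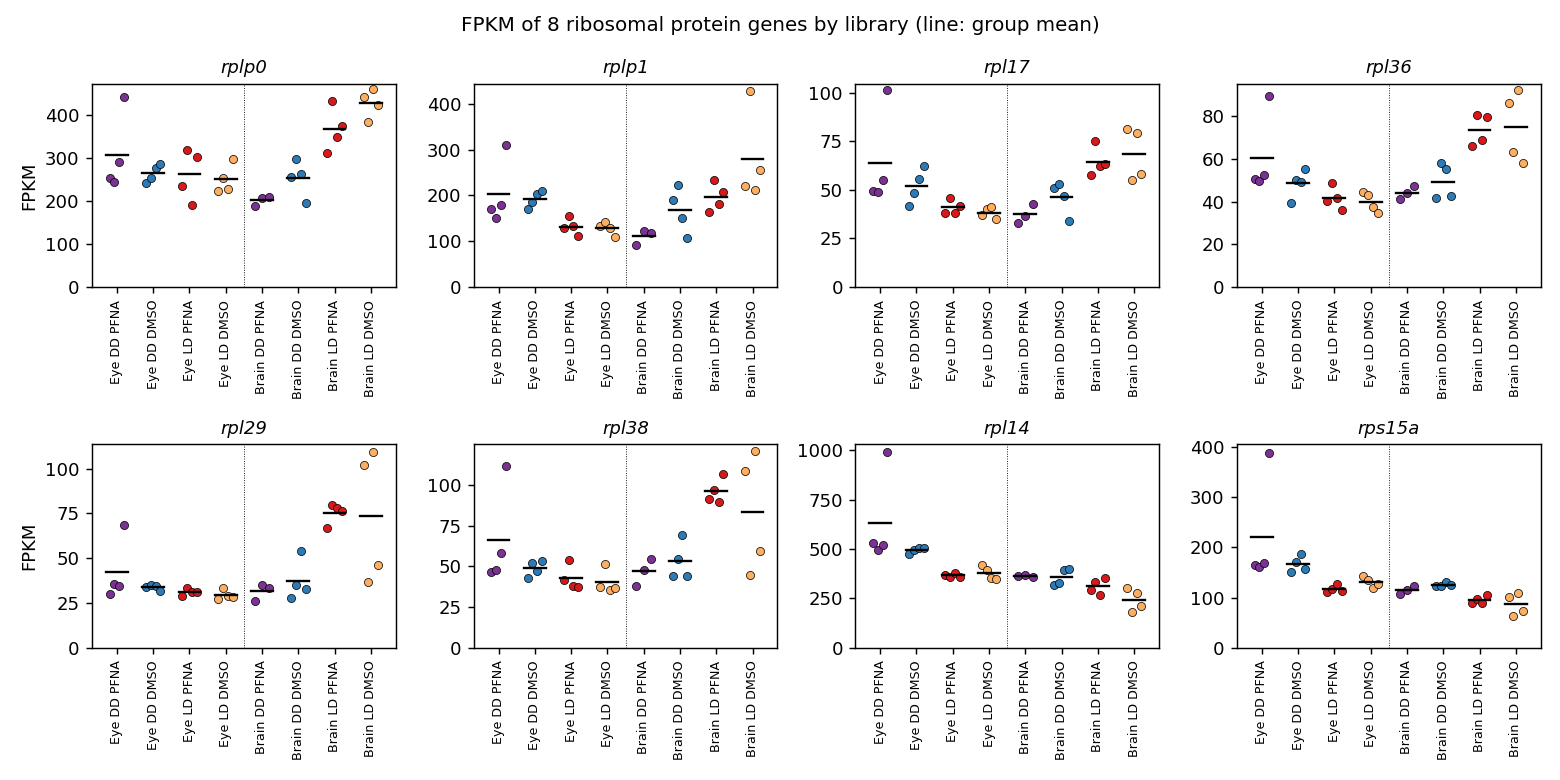
FPKM of 8 ribosomal protein genes in each library (points), with the group mean as a line and eye groups left of brain groups. Brain LD groups hold the highest group means of rplp0, rpl17, rpl36, rpl29 and rpl38, and the lowest ones of rpl14 and rps15a.

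The darkness difference itself differed between the tissues for a set of members. With PFNA the eye difference exceeded the brain difference for 13 of 80 members and was smaller for none (0.603% of all 19576 genes called higher and 0.526% lower). This comparison was added after the data were seen. The median of the eye minus brain difference was 0.73, against 0.00 for all genes, and 74 of 80 were positive. Among the called members were rpl11, rpl17, rpl24, rpl29, rpl36, rpl37 on chromosome 21, rpl38, rplp0, rplp1, rps21 and rps23. Rpl37 on chromosome 21, for example, differed by 1.55 ± 0.27 (adjusted p = 0.00388 by limma) and rpl29 by 1.58 ± 0.37 (adjusted p = 0.0324). Of 77 members tested in both tissues, 62 were positive in PFNA eyes and negative in PFNA brains. The same count over all genes is not given here, nor the count without Eye DD PFNA replicate 4. Without that library 73 of 78 members were positive in PFNA eyes.

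Leaving out Eye DD PFNA replicate 4 also gave 13 calls, of which 9 were shared, at a median of 0.52 (0.446% of all genes called higher). Leaving out single libraries of the 4 groups gave between 5 and 23 calls. The lowest counts came without Brain DD PFNA replicate 1 (5), Eye LD PFNA replicate 1 (6) and Brain LD PFNA replicate 2 (6). They were 7 without Brain LD PFNA replicate 4 or Brain DD PFNA replicate 4, and 8 without Eye LD PFNA replicate 4 or Brain DD PFNA replicate 2. The highest came without Eye DD PFNA replicate 1 (23) and replicate 2 (22).

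With DMSO only rplp1 was called among the 80 members (0.347% of all genes called higher and 0.286% lower), at 1.31 ± 0.31 (adjusted p = 0.0404 by limma). The median was 0.34 and 64 of 80 were positive. Without Eye DD PFNA replicate 4 rplp0 (0.85), rpl17 (0.98) and rpl36 (0.86) joined it (0.672% of all genes called higher), and those 3 were also called with PFNA. The call of rplp1 was lost without any 1 of Eye LD DMSO replicates 1, 2, 3 and 4, Eye DD DMSO replicates 1, 2, 3 and 4, Brain LD DMSO replicates 2 and 4 or Brain DD DMSO replicates 3 and 4. Whether the tissue difference itself differs between PFNA and DMSO was not tested.

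**Figure D5:**
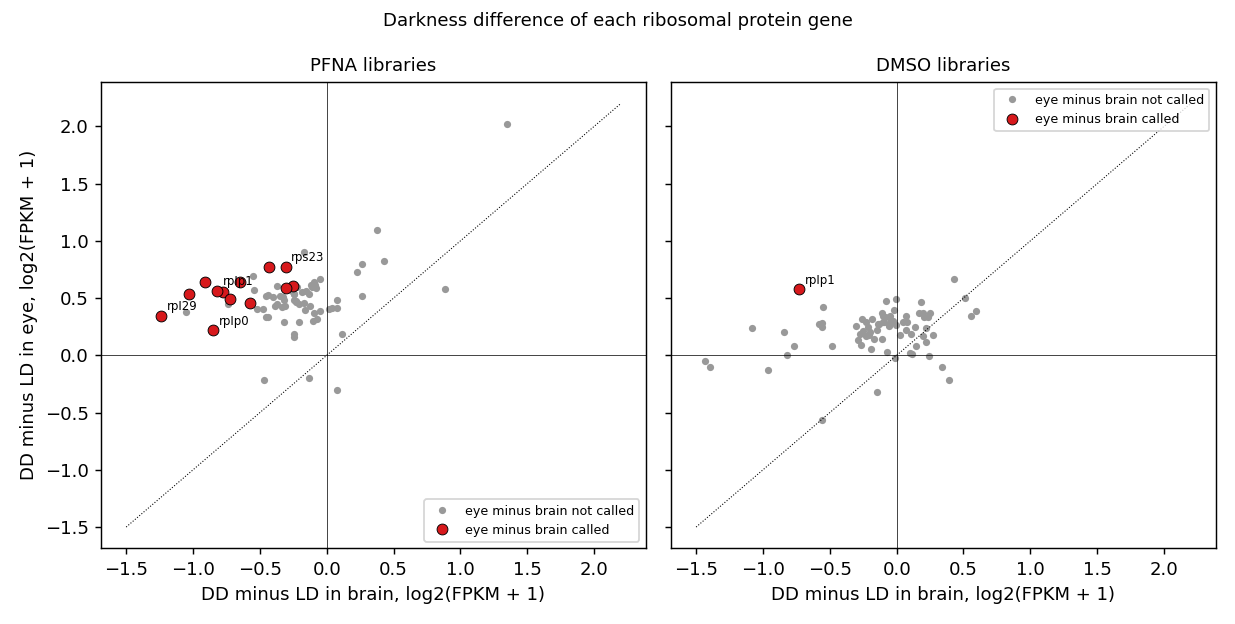
Each point is a ribosomal protein gene, with its DD minus LD difference in brain on the horizontal axis and in eye on the vertical axis, for PFNA libraries on the left and DMSO libraries on the right. Red points are those called for the eye minus brain difference (13 with PFNA and 1 with DMSO), and they lie left of and above the dotted line of equal differences.

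PFNA itself changed no member past the threshold. None of 78 was called with PFNA in eyes under DD or LD, or in brains under DD or LD, while 10.9%, 10.7%, 6.62% and 7.9% of all genes were called in those comparisons in order. Of all genes, 6.54%, 7.05%, 4.82% and 5.62% were called higher and 4.36%, 3.7%, 1.8% and 2.28% lower. Voom on the fragment numbers also called none in each of the 4. At an unadjusted p under 0.05 there were 9, 1, 7 and 4 members in the same order. The SE of a member's difference had a median of 0.18 in eyes under either photoperiod, 0.18 in DD brains and 0.17 in LD brains, so that a difference of that size on this scale is within the error for most members.

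The median of the members was 0.28 in DD eyes, 0.01 in LD eyes, -0.11 in DD brains and 0.11 in LD brains. The value in DD eyes was 0.04 without Eye DD PFNA replicate 4, when rpl30 (1.92 ± 0.55, adjusted p = 0.0316 by limma) and rpl7l1 (0.38 ± 0.12, adjusted p = 0.0493) were called higher (8.57% of all genes). Without Eye DD PFNA replicate 1 there were also 2 calls in DD eyes, and 1 call appeared in LD eyes without Eye LD DMSO replicate 3, in LD brains without Brain LD DMSO replicate 1 and in DD brains without Brain DD DMSO replicate 2 or 4. Rpl7l1 came closest in DD brains too, at 0.52 ± 0.15 (adjusted p = 0.0522). It had 9.51, 10.9 and 12.7 FPKM in Brain DD PFNA, against 5.32, 8.65, 7.27 and 8.63 FPKM in Brain DD DMSO, which do not overlap. In LD eyes rpl12 (-1.18 ± 0.43, adjusted p = 0.0946) and in LD brains rps27a (-0.79 ± 0.26, adjusted p = 0.0782) had the smallest p. Whether PFNA acted differently in DD than in LD was tested too, and none of 78 members was called in eyes or in brains (0.137% and 0.00581% of all genes; 4 and 2 members at an unadjusted p under 0.05; none with voom). Between eye and brain the PFNA effects differed past the threshold for none of 80 members under DD or LD (1.04% and 0.189% of all genes; 14 and 1 members at an unadjusted p under 0.05; none with voom).

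Between the tissues of light-dark controls the members split. In Eye LD DMSO against Brain LD DMSO 11 of 80 members were higher and 7 lower (23.9% and 23.6% of all 19576 genes), with a median of 0.03. Quantile normalization gave 6 higher and 23 lower, so the balance of directions rests on the scaling. The members' median was then -0.21, and the median of all genes moved from 0.02 to -0.07. The share of all genes called with that normalization is not given here. Among the higher ones were rpl5a, rpl14, rps15a, rps9, rps27l, rps16, rps2, rpl4, rps3 and rpl3. The lower ones were rpl29, rplp1, rpl38, rpl36, rpl17, rplp0 and rpl37 on chromosome 21, all with names of the 60S subunit. Without Eye DD PFNA replicate 4, which is in neither group, 14 of 79 members were higher and 11 lower (25.5% and 25.1% of all genes). The lower ones then also held rps13, rps21, rps27.2 and rps19bp1 of the 40S names.

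Rpl5a of the 5S particle had 325.0, 287.6, 292.8 and 276.4 FPKM in Eye LD DMSO, against 205.0, 155.4, 216.3 and 147.7 FPKM in Brain LD DMSO (0.72 ± 0.14, adjusted p = 7.47e-05 by limma). The eye and brain libraries do not overlap. Rpl36 had 44.6, 42.9, 37.4 and 34.8 FPKM in Eye LD DMSO, below each of its brain values given above (-0.87 ± 0.17, adjusted p = 6.53e-05). Of the 7 members lower in LD DMSO eye than brain, 6 were among the 7 that fell in darkness in PFNA brains. These comparisons share no library, but both fits use the same brain libraries to estimate each gene's spread. How many of all genes overlap in this way is not given here. For rps2 and rpl3 quantile normalization reversed the sign, to -0.72 and -0.47, both called.

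Duplicate genes were unequal in level. Rps8a was at 13.7 to 29.3 times the FPKM of rps8b in eyes, and rps27.1 at 2.88 to 3.99 times that of rps27.2. Rpl5a exceeded rpl5b by a factor of 1.83 to 5.17 in eyes and 1.32 to 3.64 in brains, and their darkness differences had opposite signs. Rpl5b differed by -0.56 ± 0.28 in DMSO eyes, -0.22 ± 0.28 in PFNA eyes, -0.47 ± 0.20 in PFNA brains and -0.56 ± 0.18 in DMSO brains. Rpl5a differed by 0.18 ± 0.15, 0.42 ± 0.15, 0.07 ± 0.13 and 0.11 ± 0.12 in the same order. None of these 8 values passed (smallest adjusted p = 0.0527 by limma, for rpl5b in DMSO brains). Rpl22l1 exceeded rpl22 in all 16 eye libraries, with a median ratio of rpl22 to rpl22l1 of 0.61 in eyes and 0.80 in brains. These ratios are uncertain, since it is not known how reads that match both copies were counted.

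Members differed in how closely replicates agreed. The within-group SD of log2(FPKM + 1) had a median of 0.12 in eyes without Eye DD PFNA replicate 4 and 0.26 in brains. It was lowest for rpl11 (0.07) in eyes and for rps3 (0.09) in brains, and highest for rps27a (0.94) in eyes and for rpl12 (1.49) and rpl30 (1.42) in brains. Rpl13a, one of the PCR reference genes, had an SD of 0.59 in eyes and 0.69 in brains and ranged from 13.2 to 77.8 FPKM. Rplp0, another of them, fell with darkness in brains as given above. Rps18 was not called in the darkness or PFNA comparisons, with 0.59 ± 0.20 (adjusted p = 0.0539 by limma) in Eye DD PFNA against Eye LD PFNA. Without Eye DD PFNA replicate 4 rps18 was called higher with darkness in PFNA eyes (0.31, adjusted p = 0.035) and in DMSO eyes (0.37, adjusted p = 0.00477).

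Across the libraries of a tissue the members tended to go together. The median Pearson correlation of a member with the mean of the other members was 0.79 over 15 eye libraries and 0.66 over 15 brain libraries, with library and group shared by all points. The lowest values were rpl5b (r = -0.63) and rps27a (r = -0.25) in eyes and rpl30 (r = -0.32) and rpl10 (r = -0.29) in brains. The sign in eyes rests on leaving out Eye DD PFNA replicate 4, since over all 16 eye libraries r was 0.17 for rpl5b and 0.13 for rps27a. Outside the members, the genes most like their mean in 16 eye libraries were faua (r = 0.99), which encodes a 40S protein as a fusion, eif3f (r = 0.98), cd82a (r = 0.97), cirbpb (r = 0.96) and rps20 (r = 0.96). Without Eye DD PFNA replicate 4 the r of these 5 over 15 libraries was 0.96 for faua, 0.91 for eif3f, 0.85 for cd82a, 0.91 for cirbpb and 0.87 for rps20. In 15 brain libraries they were col15a1b (r = 0.91), clpp (r = 0.89), sec61b (r = 0.88), arpc2 (r = 0.88) and faua (r = 0.87).

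Ribosome components outside the naming rule stood beside the members in darkness. In Eye DD PFNA against Eye LD PFNA RPL37A (0.71 ± 0.18), rps20 (0.65 ± 0.17) and rpsa (0.40 ± 0.13) rose, while faua (0.62 ± 0.21, adjusted p = 0.0592) and rack1 (0.19 ± 0.14, adjusted p = 0.365) did not pass the limma test. Without Eye DD PFNA replicate 4 the differences were 0.46, 0.42 and 0.24 for RPL37A, rps20 and rpsa, still called, and faua was called too (0.32, adjusted p = 0.0413). In brains none of these 5 passed with darkness under PFNA or DMSO, with the smallest adjusted p for rack1 under PFNA (-0.48 ± 0.16, adjusted p = 0.0739).

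Some of the factors that assemble ribosomes rose with PFNA in darkness, and most did not pass. Of 108 tested ribosome biogenesis genes, 30 rose and none fell with PFNA in DD brains (4.82% of all genes rose and 1.8% fell), led by wdr43 (0.61 ± 0.07), nop2 (0.89 ± 0.11), an rRNA methyltransferase, and nmd3 (1.14 ± 0.16), the export adaptor of the 60S subunit. In DD eyes 22 of 109 rose with PFNA and none fell (23 without Eye DD PFNA replicate 4; 6.54% of all genes rose and 4.36% fell), led by nop56, a core protein of snoRNPs (0.48 ± 0.09), nop2 (0.75 ± 0.14) and nmd3 (0.84 ± 0.17), which differed by 0.43, 0.61 and 0.85 without that library and were called. Of the ribosomal protein genes, none passed in the same 2 comparisons. Without Eye DD PFNA replicate 4, rpl30 and rpl7l1 were called higher in DD eyes (8.57% of all genes rose and 5.51% fell). Under LD, 4 of 108 biogenesis genes rose and 1 fell with PFNA in brains, and 1 of 109 rose in eyes (3 rose and 1 fell without Eye DD PFNA replicate 4). Of all genes, 5.62% rose and 2.28% fell in LD brains. In LD eyes 7.05% of all genes rose and 3.7% fell (11% and 6.68% without that library). In DD brains 9 of 11 pancreas and gut markers fell with PFNA, and their part in these values was not tested. The median of the biogenesis list was 0.31 in DD brains and 0.30 in DD eyes (0.23 without replicate 4), against medians near 0 for all genes. Members and biogenesis genes were not tested against each other.

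With darkness 32 of 108 biogenesis genes were called higher and none lower in PFNA brains (3.66% and 5.97% of all genes), while 7 ribosomal protein genes fell. In PFNA eyes 20 of 109 rose and 2 fell (12 and 2 without Eye DD PFNA replicate 4). Of all genes, 7.04% rose and 9.05% fell there (4.49% and 6.5% without it). In DMSO eyes 1 biogenesis gene rose and 11 fell (5 and 20 without it), among them ddx54 (-0.68 ± 0.12) and nolc1 (-0.65 ± 0.13). Of all genes, 6.22% rose and 6.34% fell there (10% and 12.1% without it). Of the ribosomal protein genes, 2 rose in DMSO eyes, and 36 without Eye DD PFNA replicate 4. In DMSO brains 8 biogenesis genes rose and 7 fell (6.39% and 9.68% of all genes). Translation initiation factors rose in 8 and fell in 5 of 44 cases with darkness in PFNA eyes (3 and 5 without Eye DD PFNA replicate 4), and 1 rose and 6 fell in DMSO eyes (4 and 11 without it). Other mRNAs with the same 5′ tract, such as tpt1 (0.56 ± 0.15) and naca (0.57 ± 0.17), rose in PFNA eyes, though in that list of 14 only 2 rose and ybx1 fell (-0.44 ± 0.13). With Eye DD PFNA replicate 4 left out, tpt1 (0.36) and naca (0.34) were still called and ybx1 was not (-0.40, adjusted p = 0.0603). In DMSO eyes of that fit, tpt1 (0.35) and naca (0.42) were called higher and ybx1 (-0.40) lower.

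Mitochondrial ribosomal proteins, which serve the ribosome of another compartment, rose in 12 and fell in 1 of 65 cases with darkness in PFNA eyes (6 and 1 without Eye DD PFNA replicate 4), and in DMSO eyes none rose and 1 fell (1 and 3 without it). Nuclear genes of oxidative phosphorylation rose in 14 of 79 cases in PFNA eyes (9 without replicate 4) and fell in 15 of 80 in PFNA brains. In DMSO brains 3 of them rose and 21 fell, and in DMSO eyes 1 rose and 1 fell (3 and 7 without replicate 4 of Eye DD PFNA). Proliferation genes fell with darkness in 13 of 35 cases in PFNA eyes (10 without Eye DD PFNA replicate 4), 24 in DMSO eyes, 11 in PFNA brains and 19 in DMSO brains, and none rose. For DMSO eyes the count of proliferation genes without that library is not given here. Of all genes, 7.04% rose and 9.05% fell with darkness in PFNA eyes (4.49% and 6.5% without that library). In DMSO eyes 6.22% of all genes rose and 6.34% fell (10% and 12.1% without it). In PFNA brains 3.66% of all genes rose and 5.97% fell, and in DMSO brains 6.39% and 9.68%.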

How the data were processed

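FPKM values were deposited by the authors for 32520 genes in 32 libraries, with gene names, positions, types and lengths. Libraries were primed with random hexamers, per the labels' protocols, which cover both strand-specific and unstranded kits. Without a known strand, reads of overlapping or antisense genes cannot be told apart. HISAT2 2.0.5 and featureCounts 1.5.0-p3 are named in the submitters' processing notes, without roles. Neither build nor annotation is given in the sources used here.

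FPKM times gene length came out as whole multiples of 1 step for 100% of values (tolerance 0.05), which gave whole fragments and totals per library. The divisor behind the FPKM was 0.899 to 1.16 times that total. The tool limma 3.58.1 (R 4.3.3, eBayes with a trend) compared log2(FPKM + 1), a scale that understates the change of low genes, where 4 or more libraries of the fit reached 1 FPKM. One fit took 16 eye libraries, one 15 brain libraries, and one all 31. Tests were two-sided, adjusted by Benjamini-Hochberg over all genes of a comparison and called under 0.05, in 15 comparisons. The scripts were tested on simulated data. Of the 82 members, 78 passed the filter in eyes (not rpl9, rpl10, rpl32 and rpl37 on chromosome 2), 78 in brains (not rpl9, rpl26, rpl32 and rpl37 on chromosome 2) and 80 in all libraries.

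The members and gene lists were chosen with earlier results of these data known. Named are the 5 highest and 5 lowest members, up to 5 called members in each direction per comparison, a fixed set of members, the 3 called genes of a list with the smallest p and the 10 genes most like the members' mean; other called members are named after their values were seen. Values of some genes are not reported here, though counts over all members include them.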

Additional observations from a re-analysis of the deposited data

Results flagged for a closer look

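In a group of 4 libraries, 1 library lay far from the other 3 in 15 of 133 cases examined, which are the share of fragments and the FPKM of 18 members in each group of 4. Chance flags about 1 in 20. Of these, 10 concern Eye DD PFNA replicate 4, whose share was 2.63% and whose FPKM were 101.3 for rpl17, 89.5 for rpl36, 68.3 for rpl29, 988.7 for rpl14, 389.3 for rps15a, 113.5 for rpl22l1, 774.8 for rps23, 593.4 for rpl5a and 751.4 for rpl11. The share of Eye DD DMSO replicate 4 was 1.70%, above 1.53% to 1.55% in the other 3. Single values stood out for rpl38 in Eye LD DMSO replicate 2 (51.7 FPKM), rpl30 in Eye DD PFNA replicate 3 (158.1 FPKM), rpl11 in Eye DD DMSO replicate 2 (364.3 FPKM) and rps13 in Brain DD DMSO replicate 3 (59.8 FPKM).

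The darkness difference was larger in eye than in brain, by limma's test of the difference itself, for rplp1 with DMSO (1.31). With PFNA it was larger in eye for rpl29 (1.58), rpl38 (1.57), rpl37 on chromosome 21 (1.55), rplp1 (1.38), rpl17 (1.33), rps21 (1.29), rpl36 (1.21), rps23 (1.08), rplp0 (1.07), rpl24 (1.03) and rpl11 (0.86).

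In the library labelled Brain DD PFNA replicate 3, which no comparison uses, the members took 1.82% of the fragments, against 1.19% to 1.40% in Brain DD DMSO. That library had rho and crygm2d1 at eye levels, and its share was within the 1.47% to 2.63% of Eye DD PFNA.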

How the results depend on the processing

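Counts of members called are given here where they moved by more than 1.5 times. The shares of all genes called under these settings are not given. For darkness in DMSO eyes (2 called) they were 1 without a filter, 1 with median-ratio scaling, 20 with quantile normalization, 31 with array weights, 4 with voom, 31 in a fit of the 2 groups alone and 32 with median-ratio scaling when Eye DD PFNA replicate 4 was left out, which was added after seeing the data. For darkness in PFNA eyes (27) they were 42 with voom and 0 in a fit of the 2 groups. For darkness in PFNA brains (7) they were 20 with array weights, 28 in a fit of the 2 groups and 2 with Brain DD PFNA replicate 3 kept. For darkness in DMSO brains (9) they were 2 in a fit of the 2 groups and 3 with that library kept. For eye against brain (18) quantile normalization gave 29 and array weights 28. For the eye minus brain difference of darkness with DMSO (1) the counts were 0 with a pseudocount of 0.1, without a filter or with the library kept, 2 with quantile normalization, 5 with array weights and 4 with the added scaling. With PFNA (13) they were 8 with quantile normalization, 26 with array weights, 3 in a fit of the groups alone and 2 with the library kept. For PFNA (0 in each comparison) 1 member was called in DD eyes with array weights, 2 there with the added scaling, and 1 in LD eyes with that scaling and in a fit of the groups.

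Within a tissue, replicate numbers did not pair samples. Same-numbered replicates had correlated deviations of -0.03 to 0.21 in eyes (over 0.1 in 2 of 24 pairs) and -0.30 to 0.27 in brains (7 of 21). Eye and brain libraries of the same number were not compared in this way, so a pairing across the tissues is not known. With the replicate number as a block 1 member was called for darkness in DMSO eyes and 1 for PFNA in LD brains.

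Leaving out 1 library at a time gave 0 to 1 calls for PFNA in LD eyes, 0 to 2 in DD eyes, 0 to 1 in LD brains and 0 to 1 in DD brains. For darkness it gave 8 to 39 in PFNA eyes, 1 to 36 in DMSO eyes, 1 to 6 in PFNA brains and 5 to 16 in DMSO brains. It gave 16 to 25 for eye against brain, 5 to 23 and 0 to 4 for the eye minus brain difference of darkness with PFNA and with DMSO, and 0 for the 4 differences of PFNA effects. In eye against brain, quantile normalization reversed rps2 (-0.72), rps14 (-0.63), rpl3 (-0.47) and rpl11 (-0.33). Apart from the fits without Eye DD PFNA replicate 4, the shares of all genes called with a library left out are not given. The causes of these shifts were not tested.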
